A study of Mus musculus with 12 samples.

Results

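Sox transcription factors were followed in mammary tumors of 12 PyMT mice. The 10 members, Sox4, Sox5, Sox6, Sox8, Sox9, Sox10, Sox11, Sox12, Sox13 and Sox17, were found by gene symbol among 21960 genes listed for every tumor. All mice were female C57BL/6 animals that carried the polyoma virus middle T oncoprotein (PyMT) as a transgene under the MMTV promoter, which is active mainly in mammary epithelium, and their tumors arose spontaneously. The tumors formed 4 groups of 3 mice. The IgG1 group received an isotype control antibody, and the anti-PD-1 group received an antibody that blocks the checkpoint receptor PD-1. The DOX/IgG1 and DOX/anti-PD-1 groups received the same antibodies together with doxorubicin (DOX), an anthracycline that damages DNA. Without doxorubicin, treatment began at a tumor diameter of 0.6 cm, with 20 mg/kg of antibody and later doses of 10 mg/kg until day 18. With doxorubicin, treatment began at 1 cm, and 5 mg/kg of doxorubicin and 10 mg/kg of antibody were given weekly over 5 weeks. Groups with and without doxorubicin thus also differed in starting tumor size, first antibody dose and schedule, and these cannot be told apart from the drug. The labels give 5 weeks for all 4 groups, and the age of the mice at sampling was not given in the sources used here. RNA came from whole snap-frozen tumors, so each value mixes tumor cells with stroma, vessels, nerves and immune cells. Values are given as TPM, the share of a transcript among all transcripts of a tumor after correction for its length, and the sequencing depth behind them is unknown.

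Sox proteins bind DNA through an HMG box that bends the helix, and related members often bind the same sites. Sox4, Sox11 and Sox12 form the SoxC group, which is active in embryonic progenitors, and SOX4 is also known as a TGF-beta target in mammary epithelium. Sox8, Sox9 and Sox10 form the SoxE group. SOX9 and SOX10 are known in the mammary gland for progenitor-like epithelial cells, SOX9 also directs cartilage formation, and SOX10 marks neural crest cells and the Schwann cells of nerves. Sox5, Sox6 and Sox13 form the SoxD group, whose proteins lack a transactivation domain of their own and, in the case of SOX5 and SOX6, assist SOX9 in cartilage. Sox17 is a SoxF gene of endoderm and arterial endothelium.

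Sox4 (ENSMUSG00000076431) lies at chr13:28948919-28953713 of GRCm38 on the minus strand, as a gene with 1 exon that overlaps the annotated gene Gm26735. Sox6 (ENSMUSG00000051910) spans 567.9 kb at chr7:115470872-116038796 with up to 17 exons in a transcript, and overlaps Gm45025 and Sox6os. Sox11 (ENSMUSG00000063632) is a gene with 1 exon at chr12:27334264-27342574. Both Sox6 and Sox11 also lie on the minus strand. The 250 bases before the RefSeq start site of these 3 members are shown because they were the members with an unadjusted limma p below 0.05 for doxorubicin under 1 or both antibodies. Capitals mark CCAAT, or ATTGG where it lies on the other strand, and ACAAAG, a form of the HMG box core motif.
Sox4: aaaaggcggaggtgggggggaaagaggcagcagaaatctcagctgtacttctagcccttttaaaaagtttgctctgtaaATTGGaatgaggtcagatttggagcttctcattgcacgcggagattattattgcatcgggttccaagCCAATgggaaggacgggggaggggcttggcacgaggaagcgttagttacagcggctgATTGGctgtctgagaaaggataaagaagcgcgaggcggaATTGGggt
Sox6: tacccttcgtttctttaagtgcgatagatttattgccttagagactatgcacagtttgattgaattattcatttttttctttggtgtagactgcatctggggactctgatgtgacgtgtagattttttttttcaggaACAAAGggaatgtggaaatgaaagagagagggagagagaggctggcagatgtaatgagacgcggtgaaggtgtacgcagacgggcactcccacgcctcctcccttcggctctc
Sox11: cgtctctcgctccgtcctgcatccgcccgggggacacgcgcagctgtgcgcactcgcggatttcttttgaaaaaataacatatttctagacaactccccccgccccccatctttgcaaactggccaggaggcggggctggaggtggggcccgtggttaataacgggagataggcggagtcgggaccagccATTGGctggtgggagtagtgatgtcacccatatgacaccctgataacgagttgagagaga
These windows were chr13:28953700-28953949 for Sox4, chr7:116038745-116038994 for Sox6, where it is 1 of 6 start sites, and chr12:27342719-27342968 for Sox11, all from GRCm38.p6 and read on the minus strand. The Sox4 window held 4 matches to CCAAT on either strand, the Sox11 window held 1, and the Sox6 window held none. The Sox6 window held 1 match to ACAAAG. Neither TATAA nor ACAAT, searched on both strands, was found in these 3 windows. Over 32851 RefSeq promoter windows of the same length, 33.8% held CCAAT, 22.8% held TATAA, 27.7% held ACAAT and 16.5% held ACAAAG. RefSeq windows were matched for 7 of the 10 members, and Sox9, Sox10 and Sox17 had no entry.

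The DOX/IgG1 replicate 1 tumor was the least like the others by correlation, before any Sox gene was considered. Its mean correlation with the other tumors over genes was 0.877, the lowest of the 12, against 0.888 for the next tumor and 0.920 for the highest, and the header of its column carries the word test. It held the highest value of Sox11, Sox12 and Sox13 and the lowest value of Sox4, Sox5 and Sox10, so that 6 of the 10 members had an extreme there. The DOX/anti-PD-1 replicate 1 tumor held an extreme of 5 members, with the highest Sox6 and Sox8 and the lowest Sox9, Sox11 and Sox17. The share of all genes with an extreme in these tumors is not given here. These counts therefore cannot be read as a trait of Sox genes.

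Sox4 and Sox9 were the most abundant members, and Sox11, Sox12 and Sox17 the least. Mean levels over the 12 tumors were 108 ± 40.1 TPM for Sox4, 98.3 ± 18.2 TPM for Sox9, 67.6 ± 25.2 TPM for Sox5 and 53.9 ± 14.6 TPM for Sox10 (SD, n = 12). Sox13 followed with 18.9 ± 7.81 TPM, Sox6 with 12.8 ± 7.93 TPM and Sox8 with 7.86 ± 3.39 TPM. Sox11 averaged 3.26 ± 3.89 TPM and Sox12 2.61 ± 1.02 TPM, while Sox17 ranged from a listed 0 to 4.29 TPM. The mean level of Sox4 was above that of 94.4% of all listed genes, and that of Sox12 was above 42.6%. In this order the range of every member overlapped the range of the next, so no neighbors were separated. Without DOX/IgG1 replicate 1, Sox11 had the lowest mean, 2.31 TPM, and Sox10, at 40.2 TPM or more, was separated from Sox13, at 23.8 TPM or less. The summed level of the 10 members lay between 305.5 and 453.7 TPM per tumor. Sox4, Sox9, Sox5 and Sox10 together made up 84.3% to 91.8% of that sum in 11 tumors and 69.3% in DOX/IgG1 replicate 1. Relative to its mean, Sox9 was the steadiest member, with a coefficient of variation of 18.5%, and Sox11 the most variable, with 119%.

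**Figure D1:**
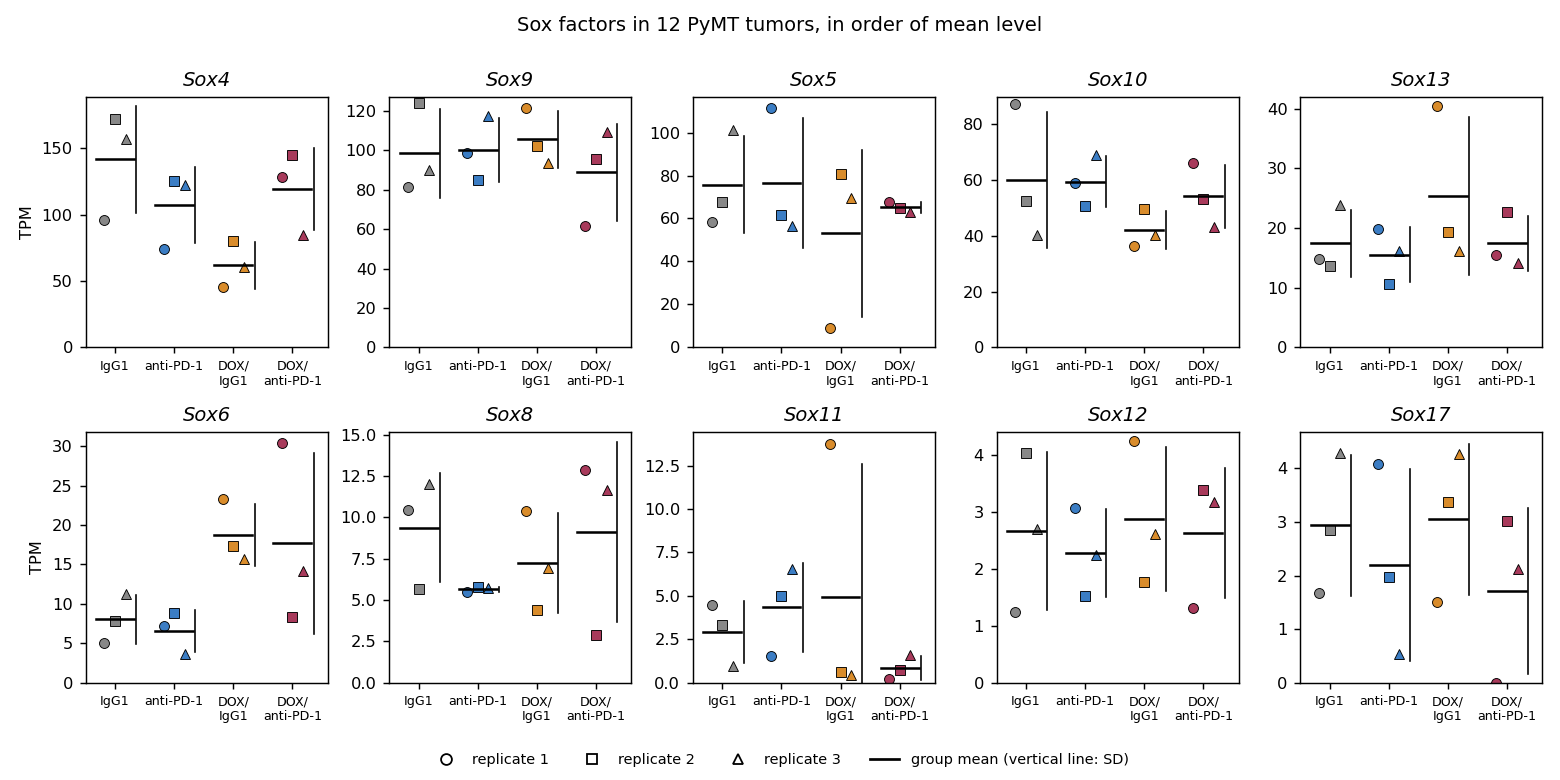
Level of each of the 10 Sox members in TPM (vertical axes, each starting at 0) in the 12 tumors, by treatment group (horizontal axis). Circles, squares and triangles are replicates 1, 2 and 3, horizontal bars are group means, and vertical lines are 1 SD to each side. Sox4 lies at 45.2 to 80.3 TPM in DOX/IgG1 tumors and at 96.0 to 172 TPM in IgG1 tumors, whereas Sox9 overlaps between all groups.

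Among the SoxE genes, Sox9 had nearly the same level in all 4 groups. Sox9 was listed at 81.3, 124 and 89.9 TPM with IgG1, 98.5, 84.9 and 117 TPM with anti-PD-1, 122, 102 and 93.4 TPM with DOX/IgG1 and 61.4, 95.6 and 109.5 TPM with DOX/anti-PD-1, in replicate order. The lowest Sox9 value was in DOX/anti-PD-1 replicate 1 and the highest in IgG1 replicate 2, and every pair of groups overlapped. Sox10 was listed at 87.3, 52.3 and 40.4 TPM with IgG1, 58.8, 50.5 and 68.9 TPM with anti-PD-1, 36.3, 49.7 and 40.2 TPM with DOX/IgG1 and 66.0, 53.1 and 43.2 TPM with DOX/anti-PD-1. The DOX/IgG1 tumors had the lowest Sox10 mean, 42.0 ± 6.90 TPM against 60.0 ± 24.4 TPM with IgG1, but IgG1 replicate 3 was below DOX/IgG1 replicate 2, so the groups overlapped. Sox8, which is co-expressed with Sox9 and Sox10 in many embryonic tissues, was listed at 10.5, 5.69 and 12.0 TPM with IgG1, 5.49, 5.77 and 5.72 TPM with anti-PD-1, 10.4, 4.40 and 6.97 TPM with DOX/IgG1 and 12.9, 2.90 and 11.7 TPM with DOX/anti-PD-1. The anti-PD-1 tumors were nearly identical in Sox8, whereas the DOX/anti-PD-1 tumors held both the lowest and the highest Sox8 value of the study.

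Among the SoxD genes, Sox6 was higher in doxorubicin-treated tumors, while Sox5 and Sox13 overlapped between groups. Sox6 was listed at 5.02, 7.86 and 11.3 TPM with IgG1, 7.17, 8.84 and 3.59 TPM with anti-PD-1, 23.3, 17.3 and 15.7 TPM with DOX/IgG1 and 30.5, 8.39 and 14.2 TPM with DOX/anti-PD-1. All 3 DOX/IgG1 values of Sox6 were above all 6 values without doxorubicin, whereas DOX/anti-PD-1 replicate 2 lay within the range of tumors without doxorubicin. Sox5 was listed at 58.2, 67.8 and 101 TPM with IgG1, 112, 61.5 and 56.6 TPM with anti-PD-1, 8.78, 80.9 and 69.5 TPM with DOX/IgG1 and 67.7, 64.8 and 63.0 TPM with DOX/anti-PD-1. A value of 8.78 TPM in DOX/IgG1 replicate 1 was far below the other 11 tumors, in which Sox5 ranged from 56.6 to 112 TPM. Sox13, known from gamma-delta T cells and also from epithelia, was listed at 14.8, 13.6 and 23.8 TPM with IgG1, 19.9, 10.6 and 16.1 TPM with anti-PD-1, 40.5, 19.3 and 16.1 TPM with DOX/IgG1 and 15.5, 22.7 and 14.1 TPM with DOX/anti-PD-1. Only the 40.5 TPM of DOX/IgG1 replicate 1 lay outside the range of 10.6 to 23.8 TPM spanned by the other tumors.

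Among the SoxC genes, Sox4 was lower in DOX/IgG1 tumors and Sox11 was below 2 TPM in 5 of the 6 doxorubicin-treated tumors. Sox4 was listed at 96.0, 172 and 157 TPM with IgG1, 73.9, 125 and 122 TPM with anti-PD-1, 45.2, 80.3 and 60.3 TPM with DOX/IgG1 and 128, 145 and 85.0 TPM with DOX/anti-PD-1. The 3 DOX/IgG1 values of Sox4 were below all values of the IgG1 and DOX/anti-PD-1 groups, and only anti-PD-1 replicate 1 fell among them. Sox11 was listed at 4.50, 3.30 and 0.980 TPM with IgG1, 1.52, 4.98 and 6.52 TPM with anti-PD-1, 13.7, 0.590 and 0.470 TPM with DOX/IgG1 and 0.220, 0.750 and 1.58 TPM with DOX/anti-PD-1. The highest Sox11 value was the 13.7 TPM of DOX/IgG1 replicate 1, next to 0.590 and 0.470 TPM in the other tumors of its group. Sox12 was listed at 1.25, 4.03 and 2.70 TPM with IgG1, 3.06, 1.52 and 2.25 TPM with anti-PD-1, 4.25, 1.77 and 2.61 TPM with DOX/IgG1 and 1.32, 3.39 and 3.18 TPM with DOX/anti-PD-1, with no group set apart from another.

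Sox17 was at a low level throughout, at 1.67, 2.86 and 4.29 TPM with IgG1, 4.09, 1.98 and 0.530 TPM with anti-PD-1, 1.51, 3.37 and 4.27 TPM with DOX/IgG1 and 0, 3.02 and 2.12 TPM with DOX/anti-PD-1. It was listed at 0 in DOX/anti-PD-1 replicate 1, which in these values can be a failed estimate, and its groups overlapped. Sox5, Sox6, Sox4, Sox8 and Sox17 overlap other annotated genes, and reads from overlapping genes may not have been separated in these levels.

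Doxorubicin was first compared under the control antibody. In DOX/IgG1 tumors Sox4 was lower and Sox6 was higher than in IgG1 tumors, with no overlap for either gene, while the other 8 members overlapped. Mean Sox4 was 61.9 ± 17.6 TPM with DOX/IgG1 and 142 ± 40.3 TPM with IgG1 (SD, n = 3 each). Mean Sox6 was 18.8 ± 3.96 TPM against 8.04 ± 3.12 TPM. In bulk tumors, fewer cells that express a gene and less RNA per cell cannot be told apart. None of the 10 members passed the test across all genes (limma on log2(TPM + 1), Benjamini-Hochberg adjusted p below 0.1 and a log2 fold change beyond 1 in either direction), which called 5 of 13874 genes, 0.0360%. At an unadjusted p below 0.05 there were 2 members, Sox4 and Sox6, against 7.73% of all genes. The groups were also separated without overlap for these 2 members, against 14.0% of all genes. The log2 fold change of Sox4 was -1.18 (SE 0.31, 95% interval -1.88 to -0.47; adjusted p = 0.469), lower in 3 of 3 tumors than in any control. That of Sox6 was 1.17 (SE 0.38, interval 0.32 to 2.02; adjusted p = 0.532), higher in 3 of 3 tumors. An exact permutation test gave p = 0.1 for both, the smallest value that 3 tumors against 3 allow.

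These fold changes are on the log2(TPM + 1) scale, which understates the change of genes near 1 TPM such as Sox11, Sox12 and Sox17. The median log2 fold change was -0.06 over the 10 members and 0.12 over all genes. Scaling the tumors by the median of ratios moved the median of all genes by -0.11, to 0.01, and Sox4 then had -1.29 and Sox6 1.06. Leaving out any tumor kept Sox4 between -1.43 and -0.97 and Sox6 between 0.91 and 1.42, each with an unadjusted p below 0.05. For Sox11, Sox5 and Sox13, in contrast, the result turned on DOX/IgG1 replicate 1. The log2 fold change of Sox11 was -0.15 (SE 0.90) with it and -1.24 without it, and up to 0.43 when another tumor was left out. That of Sox5 was -0.96 (SE 0.72) with it and 0.03 without it, and that of Sox13 was 0.45 (SE 0.41) with it and 0.06 without it, while without another tumor they reached -1.51 and 0.70. The number of genes called in the whole table was 122 without this tumor, 2 without DOX/IgG1 replicate 2 and 0 without any other tumor. Sox9 had a log2 fold change of 0.12 with an interval of -0.44 to 0.67, and Sox10 one of -0.44 with an interval of -1.16 to 0.28, and of -0.68 to -0.14 with 1 tumor left out.

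**Figure D2:**
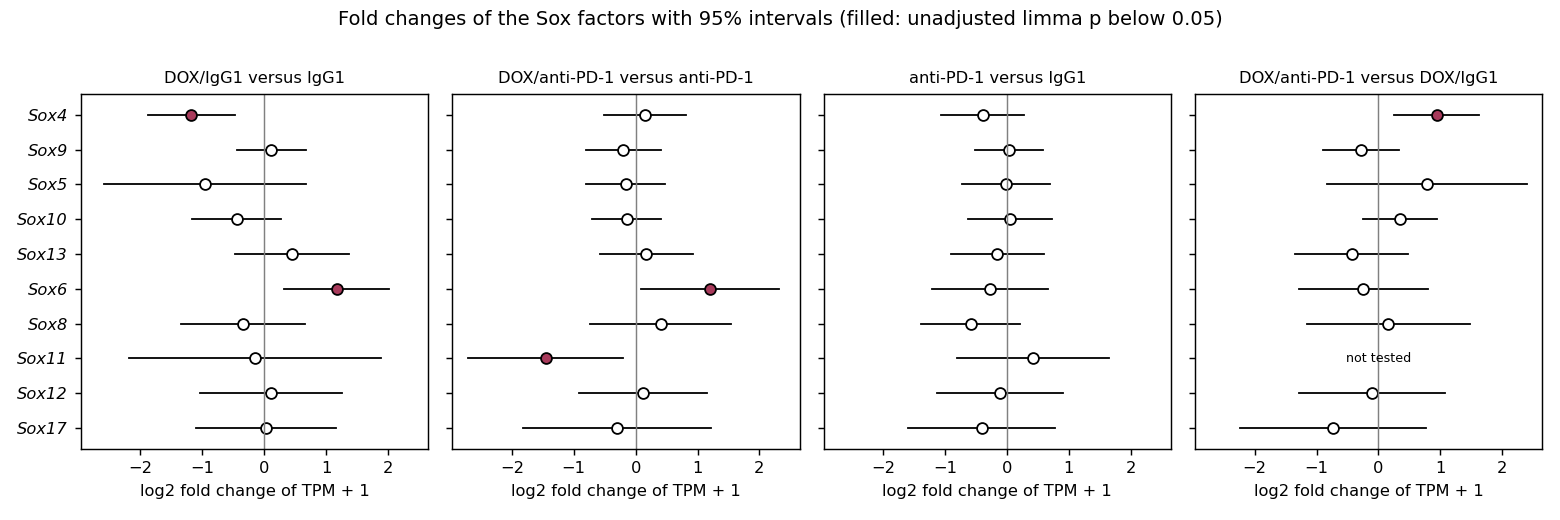
Log2 fold change of TPM + 1 (horizontal axes) of the Sox members (vertical axis, in order of mean level) in the 4 comparisons of paired groups. Points are limma estimates, lines are 95% intervals, and filled points have an unadjusted p below 0.05. Sox4 is at -1.18 and Sox6 at 1.17 in DOX/IgG1 versus IgG1, Sox6 at 1.20 and Sox11 at -1.45 in DOX/anti-PD-1 versus anti-PD-1, and Sox4 at 0.94 in DOX/anti-PD-1 versus DOX/IgG1.

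Doxorubicin was then compared under anti-PD-1. Sox6 was again higher on average, at 17.7 ± 11.4 TPM with DOX/anti-PD-1 against 6.53 ± 2.68 TPM with anti-PD-1 (SD, n = 3 each). Sox11 was lower on average, at 0.850 ± 0.686 TPM against 4.34 ± 2.56 TPM. Sox4 had close means, 119 ± 31.0 TPM and 107 ± 29.0 TPM. No member and no other gene was called by limma, 0% of 13736 genes, and 2 members had an unadjusted p below 0.05, against 8.63% of all genes. No member was separated without overlap, against 14.9% of all genes. The log2 fold change of Sox6 was 1.20 (SE 0.49, interval 0.09 to 2.32; adjusted p = 0.544; exact permutation p = 0.2). For Sox11 it was -1.45 (SE 0.56, interval -2.71 to -0.20; adjusted p = 0.533; exact permutation p = 0.2), and 1.58 TPM in DOX/anti-PD-1 replicate 3 exceeded 1.52 TPM in anti-PD-1 replicate 1. For Sox4 it was 0.16 with an interval of -0.50 to 0.82, and it ranged from -0.09, without anti-PD-1 replicate 1, to 0.38 with 1 tumor left out.

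Both differences depended on individual tumors. The unadjusted limma p of Sox6 was above 0.05 without DOX/anti-PD-1 replicate 1 (log2 fold change 0.74), anti-PD-1 replicate 3 (0.88), DOX/anti-PD-1 replicate 3 (1.26) or anti-PD-1 replicate 1 (1.30). The same held for Sox11 without anti-PD-1 replicate 3 (-1.14), either of DOX/anti-PD-1 replicates 1 and 2, or anti-PD-1 replicate 2. Sox6 thus stayed higher and Sox11 lower when these tumors were left out. Sox8 had a log2 fold change of 0.40 (SE 0.50), and 0.99 (unadjusted limma p below 0.05) without DOX/anti-PD-1 replicate 2, whose Sox8 level of 2.90 TPM was the lowest of all, and down to 0.08 without another tumor. Sox5 had -0.16, and 0.14 without anti-PD-1 replicate 1, whose 112 TPM was the highest Sox5 value, and down to -0.34 without another tumor.

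With both antibodies in a single fit over 12 tumors, Sox6 was the member with the smallest p for doxorubicin. Its log2 fold change was 1.19 (SE 0.33, interval 0.48 to 1.89; adjusted p = 0.226). A permutation test that reassigned tumors within each antibody gave an exact p = 0.01, where 0.005 is the smallest possible. Leaving out each tumor in turn kept Sox6 between 0.95 and 1.39, each with an unadjusted p below 0.01. Sox4 had a log2 fold change of -0.51 (SE 0.22; adjusted p = 0.395; exact permutation p = 0.16), which averaged -1.18 under IgG1 with 0.16 under anti-PD-1. The limma p of Sox4 was above 0.05 when IgG1 replicate 2 or 3, anti-PD-1 replicate 2 or 3, DOX/IgG1 replicate 1 or 3, or DOX/anti-PD-1 replicate 3 was left out, with fold changes of -0.51 to -0.40. Sox11 had -0.80 (SE 0.56), and -1.35 (unadjusted limma p below 0.05) without DOX/IgG1 replicate 1, in which it was at 13.7 TPM, and up to -0.51 without another tumor. Sox5 had -0.56 with DOX/IgG1 replicate 1 and -0.07 without it, and down to -0.835 without another tumor. Sox9 had -0.04 with an interval of -0.43 to 0.35. None of the 10 members was called by limma, against 13 of 14735 genes, 0.0882%. At an unadjusted p below 0.05 there were 2 members, Sox4 and Sox6, against 11.9% of all genes. The number of genes called ranged from 0 to 301 when 1 tumor was left out and was 301 without DOX/IgG1 replicate 1.

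**Figure D3:**
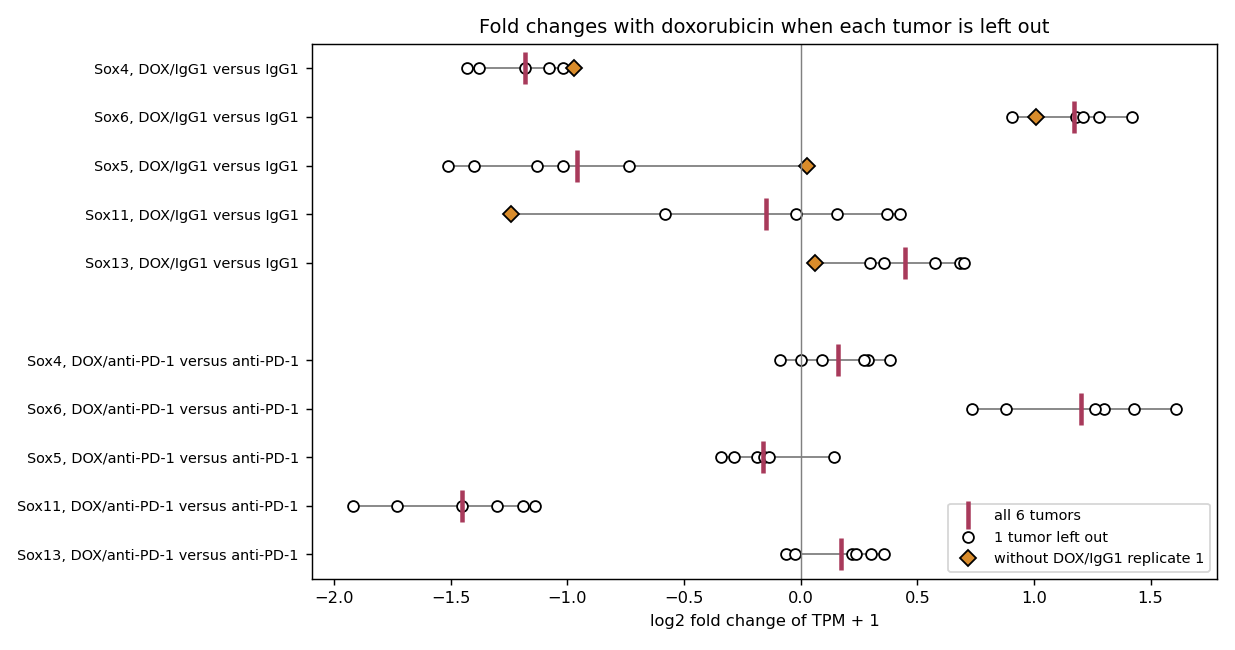
Log2 fold change of TPM + 1 (horizontal axis) with doxorubicin for Sox4, Sox6, Sox5, Sox11 and Sox13 under each antibody (vertical axis). Vertical bars are the values from all 6 tumors, open circles those with 1 tumor left out, and diamonds those without DOX/IgG1 replicate 1. Under IgG1, Sox4 stays between -1.43 and -0.97 and Sox6 between 0.91 and 1.42, whereas Sox5 moves from -0.96 to 0.03 and Sox11 from -0.15 to -1.24 without that tumor.

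The PD-1 antibody was compared with IgG1 in the absence of doxorubicin. All 10 members overlapped between anti-PD-1 and IgG1 tumors, against 9.88% of all genes whose groups were separated. No member was called, nor was any of 13692 genes (0%, limma), and no member had an unadjusted p below 0.05, against 4.60% of all genes. The largest log2 fold change was that of Sox8, 5.66 ± 0.149 TPM with anti-PD-1 and 9.39 ± 3.29 TPM with IgG1 (SD, n = 3 each), with -0.59 (SE 0.36; adjusted p = 0.996). It ranged from -0.88, without IgG1 replicate 2 and with an unadjusted limma p below 0.05, to -0.40 when 1 tumor was left out. Sox4 had -0.39 (SE 0.30), and ranged from -0.65, without IgG1 replicate 1 and with an unadjusted limma p below 0.05, to -0.15 when 1 tumor was left out. Sox10 had 0.05, and 0.35 without IgG1 replicate 1, which held its highest value of 87.3 TPM, and -0.19 without IgG1 replicate 3. Sox9 had 0.04 with an interval of -0.51 to 0.59. Of 8 hormone-sensing luminal markers 0 were called by limma and 1 was lower at an unadjusted p below 0.05 (median log2 fold change -0.43). Of 5 tested leukocyte markers 0 were called and 0 were below 0.05 (median -0.20), while the median of the members was -0.13. At that p, 2 of 9 epithelial, 2 of 13 endothelial and 1 of 7 fibroblast markers were lower, and 8, 11 and 7 had negative fold changes. The Schwann, T cell and Wnt lists each held 1 gene higher at that p, and 6 of 8 proliferation markers had positive fold changes. In these lists 0 genes were called.

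In the presence of doxorubicin, Sox4 was higher with anti-PD-1 than with IgG1. All 3 DOX/anti-PD-1 tumors lay above all 3 DOX/IgG1 tumors, although 85.0 TPM in DOX/anti-PD-1 replicate 3 was close to 80.3 TPM in DOX/IgG1 replicate 2. The log2 fold change of Sox4 was 0.94 (SE 0.30, interval 0.26 to 1.62; adjusted p = 0.988; exact permutation p = 0.1). It was 0.78, with an unadjusted limma p above 0.05, without DOX/anti-PD-1 replicate 2. Sox4 was the only one of 9 tested members without overlap, against 10.2% of all genes, and the only one with an unadjusted p below 0.05, against 4.70%. By limma no member was called, nor was any of 13946 genes (0%). Sox11 was not tested here because it reached 1 TPM in 1 tumor of each group. Sox5 had a log2 fold change of 0.79 (SE 0.71), -0.20 without DOX/IgG1 replicate 1 and up to 1.33 without another tumor. Sox6 had -0.24 (SE 0.46), -0.71 without DOX/anti-PD-1 replicate 1 and 0.16 without replicate 2 of that group, and Sox8 had 0.16 (SE 0.58), 0.75 without DOX/anti-PD-1 replicate 2 and down to -0.17 without another tumor. Sox17 had -0.73 (SE 0.66), -0.13 without DOX/anti-PD-1 replicate 1, where it was listed at 0, and down to -1.13 without another tumor. Over both arms, anti-PD-1 gave no member with an unadjusted p below 0.05 and none called, against 4.77% and 0.00679% of 14735 genes. Sox5 had 0.39 (SE 0.43) in this fit, -0.11 without DOX/IgG1 replicate 1 and up to 0.66 without another tumor. The smallest p of a member was that of Sox17, with a log2 fold change of -0.57 (SE 0.43; adjusted p = 1.0; exact permutation p = 0.23), which ranged from -0.78 to -0.27 with 1 tumor left out, the latter without DOX/anti-PD-1 replicate 1.

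Whether doxorubicin acted alike under both antibodies was tested as an interaction over the 12 tumors. Sox4 had the smallest p of the members, with a mean of 142 TPM without and 61.9 TPM with doxorubicin under IgG1, and 107 TPM without and 119 TPM with doxorubicin under anti-PD-1. Its interaction was 1.33 on the log2 scale (SE 0.45, interval 0.38 to 2.29; adjusted p = 0.993). It was the only member with an unadjusted p below 0.05, against 4.71% of all genes, and none of the 10 was called, against 0.00679%. When single tumors were omitted, the interaction of Sox4 stayed between 1.09 and 1.59. Sox6 had an interaction of 0.03 with an interval of -1.37 to 1.44, so a difference between antibodies of up to that size in either direction was not resolved. It ranged from -0.43 to 0.44 when single tumors were left out. Sox11 had -1.31 (SE 1.12), close in size to Sox4 on a scale that understates it, with a mean of 2.93 TPM without and 4.93 TPM with doxorubicin under IgG1, and 4.34 and 0.850 TPM under anti-PD-1. It was -0.22 without DOX/IgG1 replicate 1 and down to -1.88 without another tumor. Sox5 had 0.80 (SE 0.85), -0.19 without DOX/IgG1 replicate 1 and up to 1.35 without another tumor. Sox8 had 0.75 (SE 0.70), 1.33 (unadjusted limma p below 0.05) without DOX/anti-PD-1 replicate 2 and down to 0.42 without another tumor.

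Genes known as targets of SOX9, SOX5 and SOX6 in cartilage were measured beside these members. Of 14 such genes 13 were listed, and the most abundant was Col11a1, a fibrillar collagen chain, at 108 to 378 TPM. Col2a1, the main collagen of cartilage, lay between a listed 0 and 17.8 TPM, with its highest value in DOX/IgG1 replicate 1, and the proteoglycan Acan between a listed 0 and 13.7 TPM. Matn1 was listed at 0 in all tumors. In DOX/IgG1 versus IgG1, none of 8 tested genes was called by limma, and at an unadjusted p below 0.05 there were 0 higher and 3 lower, all of them chains of collagen IX, against 7.73% of all genes at that p, with a median log2 fold change of -0.39 over the list and 0.12 over all genes. Col9a2 was listed at 68.7, 79.7 and 50.6 TPM with IgG1, 99.7, 73.8 and 68.0 TPM with anti-PD-1, 13.0, 19.0 and 22.9 TPM with DOX/IgG1 and 38.8, 93.5 and 42.3 TPM with DOX/anti-PD-1. The DOX/IgG1 tumors were below all others in Col9a2, and in Sox4 below all others except anti-PD-1 replicate 1. The fold change of Col9a2 was -1.81 against IgG1 on the log2 scale (SE 0.30; adjusted p = 0.349). Col9a1 had -1.82 (SE 0.37; adjusted p = 0.432), and Col9a3 -1.02 (SE 0.36; adjusted p = 0.568). Without DOX/IgG1 replicate 1 these were -1.60, -1.51 and -1.38, and Col9a2 was called, against 122 of 13874 genes. In that fit 0 were higher and 4 lower at an unadjusted p below 0.05, against 13.0% of all genes, with a list median of -0.75. In DOX/anti-PD-1 versus anti-PD-1, none of 8 tested cartilage-type genes was called and 0 had an unadjusted p below 0.05. The levels of Sox9 itself overlapped between all groups, and over the 12 tumors Sox9 had r = -0.35 with Col9a1, -0.11 with Col9a2 and 0.44 with Col2a1. Without DOX/IgG1 replicate 1 these were -0.16, 0.15 and 0.27.

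Genes associated with SoxC factors differed among themselves, and some had the sign of Sox4 and some the opposite. Of 10 such genes all were listed, with Ezh2, the catalytic subunit of a Polycomb complex, as the most abundant at 61.9 to 141 TPM, and Dcx, a neuronal gene, below 1 TPM in every tumor. In DOX/IgG1 versus IgG1, none of 9 tested was called by limma, and 1 was higher and 1 lower at an unadjusted p below 0.05, against 7.73% of all genes. These were Sema3c, a guidance cue, with a log2 fold change of 0.92 (SE 0.32; adjusted p = 0.552), and Stmn1, a microtubule regulator, with -0.84 (SE 0.33; adjusted p = 0.597). At that p, 3 were higher and 2 lower without DOX/IgG1 replicate 1, against 13.0% of all genes, and 0 were called. Tead2, a transcription factor of the Hippo pathway, had the same sign of interaction as Sox4, 1.29 (SE 0.46; adjusted p = 0.993), and Sema3c the opposite sign, -1.48 (SE 0.43; adjusted p = 0.993). Smad3, which carries TGF-beta signals, had a log2 fold change of 0.94 in DOX/anti-PD-1 versus anti-PD-1 (SE 0.27; adjusted p = 0.488), while Sox4 had 0.16 there.

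Several Sox proteins bind beta-catenin or its partner TCF, and 14 Wnt pathway genes linked to Sox factors were listed. Ctnnb1, which encodes beta-catenin, was the most abundant at 323 to 816 TPM, with its highest level in DOX/IgG1 replicate 1, and Sp5 was listed at 0 throughout. In DOX/IgG1 versus IgG1, none of 13 tested was called by limma, and 2 were higher and 0 lower at an unadjusted p below 0.05 (7.73% of all genes), or 1 and 0 without DOX/IgG1 replicate 1 (13.0%). Ccnd1, a cyclin of G1 phase, had a log2 fold change of 0.93 (SE 0.25; adjusted p = 0.469). Lgr5, a receptor of stem cells, had an interaction of -2.53 (SE 0.77; adjusted p = 0.993), opposite in sign to that of Sox4. Nkd1, a feedback inhibitor, had 0.73 for doxorubicin over both antibodies (SE 0.32; adjusted p = 0.396), where Sox6 had 1.19.

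Markers of mammary cell types were read beside Sox4, Sox9 and Sox10. Of all genes, 7.73% had an unadjusted p below 0.05 in DOX/IgG1 versus IgG1, and 13.0% without DOX/IgG1 replicate 1, when 122 were called. In this comparison, where Sox4 was lower, 0 of 9 epithelial markers were called by limma and 0 were higher and 2 lower at an unadjusted p below 0.05, with a median log2 fold change of -0.19. Epcam, the most abundant of them, was listed at 938, 846 and 954 TPM under IgG1 and at 565, 522 and 418 TPM under DOX/IgG1 (log2 fold change -0.87, SE 0.23; adjusted p = 0.469). Summed epithelial markers were at 2794 to 3996 TPM in IgG1 and at 2312 to 4075 TPM in DOX/IgG1 tumors, and overlapped. At the same p, 3 were higher and 2 lower without DOX/IgG1 replicate 1, 0 were called and the median was -0.01. Of 9 luminal progenitor markers 0 were called and 1 was lower at an unadjusted p below 0.05, the milk protein gene Csn3 with -1.79 (SE 0.51; adjusted p = 0.479), and the median of the list was -0.12. Without Csn3, their summed level was 1185 to 1783 TPM with IgG1 and 2091, 1092 and 793.8 TPM with DOX/IgG1, so that only DOX/IgG1 replicate 1 was not below all IgG1 tumors. Without that tumor 0 were called, 3 were lower at an unadjusted p below 0.05, and the median was -0.54. Of 11 basal and myoepithelial markers 0 were called and 9 had positive fold changes, with a median of 0.31, while 1 was lower at an unadjusted p below 0.05, the stem cell receptor Lgr6. Their sum lay at 248.6 to 580.9 TPM with IgG1 and at 253.2, 841.4 and 1182 TPM with DOX/IgG1, with Acta2 as the most abundant. When DOX/IgG1 replicate 1 was left out, 1 was called, 6 were higher and 1 lower at an unadjusted p below 0.05, and the median was 1.36. Of 8 hormone-sensing luminal markers 0 were called and 0 were higher and 1 lower at that p, the growth factor gene Areg with -2.04 (SE 0.60; adjusted p = 0.494), with a median of 0.52. Their sum lay at 309.3 to 689.6 TPM with IgG1 and at 160.9, 876.4 and 1111 TPM with DOX/IgG1, with Prlr as the most abundant. With DOX/IgG1 replicate 1 left out, 2 were called, 5 were higher and 1 lower, and the median was 1.37. Of 8 proliferation markers 0 were called and 0 had an unadjusted p below 0.05, with a median of -0.76. Their sum lay at 436.1 to 503.3 TPM with IgG1 and at 520.5, 256.1 and 381.8 TPM with DOX/IgG1, and without DOX/IgG1 replicate 1, 5 were lower at that p and the median was -1.215. No marker of these lists was listed at 0 throughout. The part of these cell types in the lower Sox4 was not tested.

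Lgr6, unlike most of its list, was lower in DOX/IgG1 tumors, as was Sox4. It was listed at 53.6, 34.7 and 56.2 TPM with IgG1, 24.6, 28.3 and 26.1 TPM with anti-PD-1, 11.9, 20.8 and 27.4 TPM with DOX/IgG1 and 43.1, 73.1 and 68.7 TPM with DOX/anti-PD-1. The DOX/IgG1 tumors were below all IgG1 and all DOX/anti-PD-1 tumors, as for Sox4, but the anti-PD-1 tumors were also below the IgG1 tumors. Its interaction was 2.43 (SE 0.45; adjusted p = 0.548). Over the 12 tumors, no Sox member other than Sox4 had DOX/IgG1 values below every tumor of both of these groups.

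**Figure D4:**
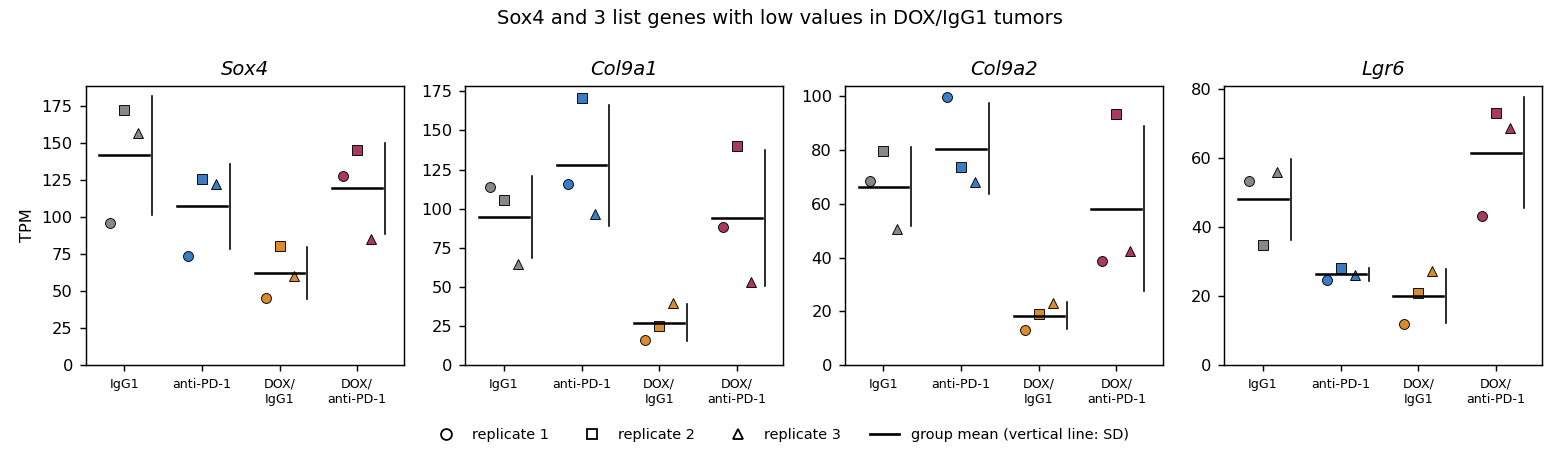
Levels of Sox4, Col9a1, Col9a2 and Lgr6 in TPM (vertical axes, starting at 0) in the 12 tumors by group (horizontal axis). Circles, squares and triangles are replicates 1, 2 and 3, horizontal bars are means and vertical lines are 1 SD to each side. In DOX/IgG1 tumors Sox4 is at 45.2 to 80.3 TPM, Col9a1 at 16.0 to 39.8 TPM, Col9a2 at 13.0 to 22.9 TPM and Lgr6 at 11.9 to 27.4 TPM.

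Salivary gland markers were read in the group with the lowest Sox4. Of 12 such genes 11 were listed, and in DOX/IgG1 versus IgG1 7 of 9 tested had positive fold changes. At an unadjusted p below 0.05, 3 were higher and 1 lower (7.73% of all genes), and 2 were called by limma (0.0360% of all genes). The 2 called, Bpifa2 and Smr3a, reached the 1 TPM in 3 tumors needed for a test only through the DOX/IgG1 tumors. When DOX/IgG1 replicate 1 was left out, 3 were called, against 122 of 13874 genes. In that fit 5 were higher and 1 lower at an unadjusted p below 0.05 (13.0% of all genes). Neither Bpifa2 nor Smr3a was called when any other of the 6 tumors was left out, with adjusted p values of 0.125 to 0.317. A replicate block also ended both calls (limma adjusted p = 0.113 for Bpifa2 and 0.163 for Smr3a). A pseudocount of 0.1 ended the call of Smr3a (limma adjusted p = 0.135). Both genes rose, in the fit of all 6 tumors, from a listed 0 in all 3 IgG1 tumors, so no fold change is given. Bpifa2, a secreted protein of the parotid gland, was listed at 14.4, 21.3 and 53.7 TPM in DOX/IgG1 tumors and at 0 in the other 9 tumors (adjusted p = 0.0334). Smr3a, a gene of salivary glands, was listed at 16.6, 10.2 and 14.8 TPM in DOX/IgG1 tumors, at 2.76 TPM in 1 anti-PD-1 tumor and at 0 elsewhere (adjusted p = 0.0334). Amy1, an amylase, had a log2 fold change of 1.875 (SE 0.45; adjusted p = 0.460). The most abundant marker, the water channel Aqp5, was lower without overlap, at 252, 251 and 279.9 TPM against 444, 381 and 411 TPM with IgG1 (log2 fold change -0.66, SE 0.21; adjusted p = 0.514). Without Aqp5, the list summed to 65.16, 117.5 and 141.2 TPM in DOX/IgG1 tumors, 6.4 to 23.85 TPM in IgG1 tumors and at most 37.47 TPM in the other groups. With Aqp5, the sums were 317.0 to 421.1 TPM with DOX/IgG1 and 405.3 to 450.3 TPM with IgG1. Whether salivary tissue took part in the lower Sox4 or the higher Sox6 of these tumors was not tested.

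SOX10 is shared by mammary progenitors and Schwann cells, and both marker lists were compared with it. Of 16 Schwann and neural crest markers, Foxd3 and Gap43 were listed at 0 in all tumors, Pax3 and Sox2 stayed below 1 TPM, and Ncam1 was the most abundant. Over the 12 tumors, the correlation of Sox10 with 12 tested Schwann and neural crest markers ranged from r = -0.42 for S100b to 0.21 for Cdh19. With 9 luminal progenitor markers it ranged from -0.46 for Kit to 0.60 for Csn3. Without DOX/IgG1 replicate 1, r was -0.31 for Cdh19 and -0.28 for Kit. In DOX/IgG1 versus IgG1, 0 of 12 Schwann markers were called by limma and 1 was higher at an unadjusted p below 0.05 (7.73% of all genes), S100b with a log2 fold change of 1.61 (SE 0.50; adjusted p = 0.514), where Sox10 had -0.44 (SE 0.32). S100b had 2.14 and was called when DOX/IgG1 replicate 1 was left out, a fit that called 122 of 13874 genes. In that fit 4 markers were higher at an unadjusted p below 0.05 (13.0% of all genes). In DOX/anti-PD-1 versus anti-PD-1, Sox10 had -0.14 (SE 0.25). Summed Schwann markers lay at 158.5 to 351.3 TPM per tumor.

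SOX17 is a factor of arterial endothelium, and its level was read beside vessel markers. Over the 12 tumors, Sox17 had r between -0.25 and 0.32 with 13 endothelial markers, of which Pecam1 was the most abundant. Among 5 tested arterial markers r was highest for the connexin Gja4, 0.50, and lowest for the Notch ligand Dll4, -0.45. In DOX/anti-PD-1 versus anti-PD-1, 0 of 13 endothelial markers were called by limma and 3 were higher and 0 lower at an unadjusted p below 0.05, with a median log2 fold change of 0.37, against 8.63% of all genes below that limit. In DOX/IgG1 versus IgG1, 0 were called and 0 were higher and 1 lower, Cdh5, an endothelial cadherin, with -0.996 (SE 0.41; adjusted p = 0.621), against 7.73% of all genes, with a median of -0.09, or of 0.05 without DOX/IgG1 replicate 1. Sox17 had 0.03 there. In DOX/anti-PD-1 versus anti-PD-1 it had -0.30 (SE 0.67), 0.31 without DOX/anti-PD-1 replicate 1, where it was listed at 0, and down to -0.745 without another tumor.

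SOX13 and SOX4 are known in gamma-delta T cells, and T cell markers were read beside them. Of 11 such markers 9 were listed, and Il17a was listed at 0 in all tumors. In DOX/IgG1 versus IgG1, 0 of 6 were called by limma and 1 was higher at an unadjusted p below 0.05 (7.73% of all genes). This was Cd3g, a CD3 subunit of the T cell receptor complex, with a log2 fold change of 2.39 (SE 0.65, limma adjusted p = 0.469). It was listed at 0 in 2 of the IgG1 tumors. Sox13 had 0.45 (SE 0.41) in that comparison. When DOX/IgG1 replicate 1 was left out, Cd3g was called, in a fit that called 122 of 13874 genes. In that fit 3 markers were higher at an unadjusted p below 0.05 (13.0% of all genes), and Sox13 had 0.06.

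Stromal markers were read beside the Sox6 and Sox11 values under anti-PD-1, where 8.63% of all genes had an unadjusted limma p below 0.05. In DOX/anti-PD-1 versus anti-PD-1, 0 of 10 adipocyte markers were called by limma, 8 were higher at an unadjusted p below 0.05, and their median log2 fold change was 1.43 against 0.11 over all genes. Their sum lay at 467.0 to 1340 TPM with DOX/anti-PD-1 and 184.0 to 274.4 TPM with anti-PD-1, with Car3 as the most abundant gene. Of 11 basal and myoepithelial markers 0 were called and 6 were higher (median 0.80), and of 7 fibroblast markers 0 were called and 4 were higher (median 0.77). Skeletal muscle markers, 0 of 11 with an unadjusted p below 0.05, summed to 0.81 to 1137 TPM over the 12 tumors. In DOX/anti-PD-1 replicates 1, 2 and 3 the sum was 1137, 0.81 and 198.4 TPM and Sox6 was 30.5, 8.39 and 14.2 TPM, in the same order. In DOX/IgG1 replicates 1, 2 and 3 the order was reversed, with sums of 65.7, 175.3 and 224.7 TPM and Sox6 at 23.3, 17.3 and 15.7 TPM. The orders also differed within the IgG1 and the anti-PD-1 group. Over the 12 tumors Sox6 and this sum had r = 0.39 on log2(TPM + 1), 0.69 after removal of group means and 0.22 without DOX/anti-PD-1 replicate 1. The part of these tissues in the Sox6 and Sox11 values was not tested.

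The members differed in how their levels went together across tumors. Of 45 pairs, 4 had a Pearson r above 0.5 and 4 below -0.5, on log2(TPM + 1) over 12 tumors that share 4 treatments. The closest pair by Pearson r was Sox9 and Sox12, with r = 0.76 and Spearman's rho = 0.75, and r = 0.71 without DOX/IgG1 replicate 1. By rho it was Sox5 and Sox17, with 0.80 and r = 0.32, and r = 0.56 without that tumor. Sox10 was opposed to Sox12 (r = -0.61, rho = -0.50) and to Sox6 (r = -0.54, rho = -0.62). Sox5 and Sox11 had r = -0.71 (rho = -0.71), and -0.45 without DOX/IgG1 replicate 1. Several values changed sign or size with that tumor. Sox5 and Sox13 had r = -0.575 with it and 0.62 without it, and Sox4 and Sox5 had 0.53 with it and -0.16 without it. Sox6 and Sox11 had -0.34 with it and -0.83 without it, and -0.13 over 12 tumors after removal of group means.

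**Figure D5:**
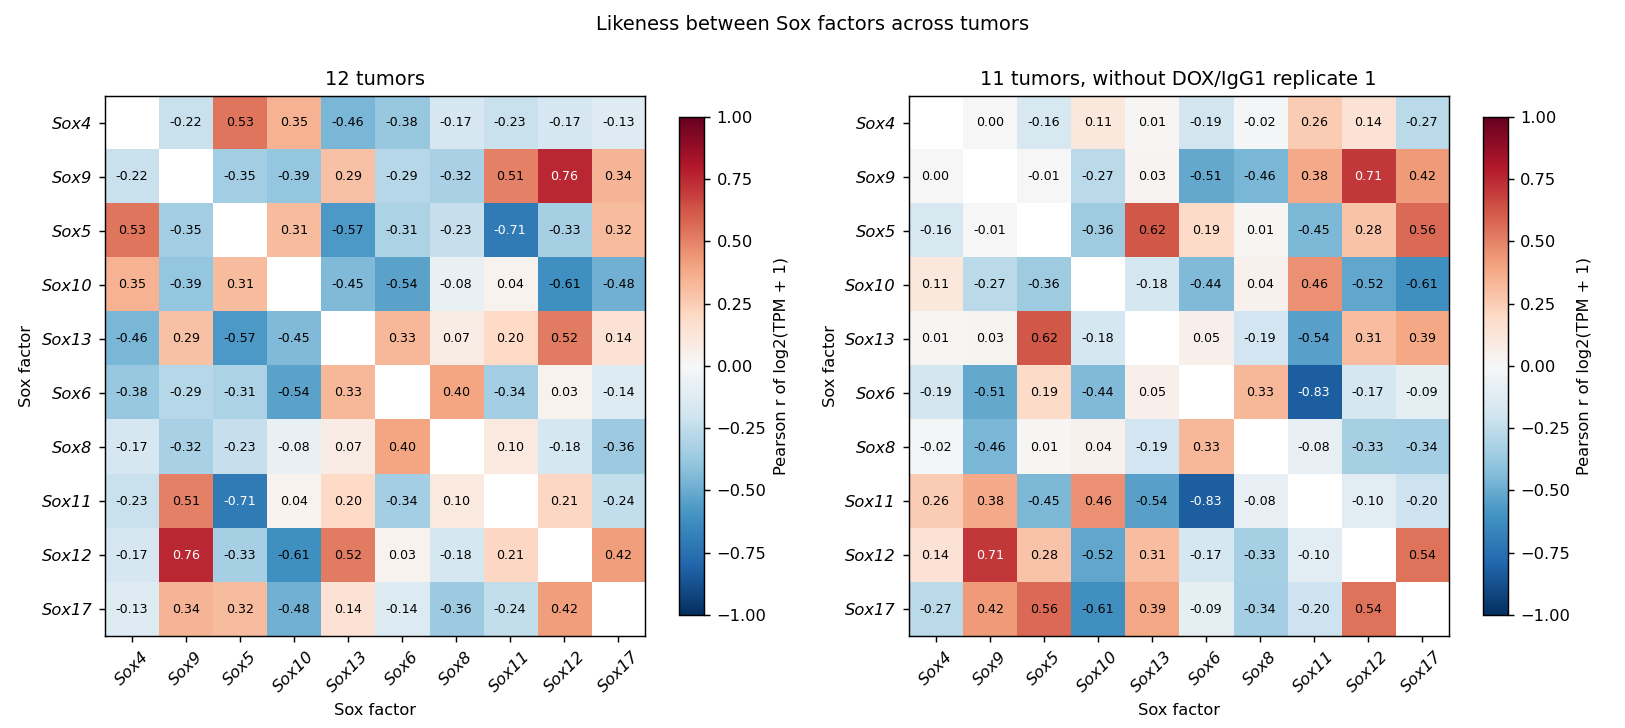
Pearson r of log2(TPM + 1) between pairs of Sox members (both axes, in order of mean level), over 12 tumors on the left and over 11 tumors without DOX/IgG1 replicate 1 on the right, with the color scale from -1 to 1. Sox9 and Sox12 have 0.76 and 0.71, whereas Sox5 and Sox13 go from -0.575 to 0.62 and Sox6 and Sox11 from -0.34 to -0.83.

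Genes whose levels were most like those of each member were sought among 14735 genes over the 12 tumors. For Sox4 they were Garem1 (r = 0.95, rho = 0.88), Arfgef3 (r = 0.95, rho = 0.90) and Mcfd2 (r = 0.93, rho = 0.92), an adaptor of receptor signaling, an exchange factor and a cargo receptor subunit. They kept r of 0.91 to 0.93 without DOX/IgG1 replicate 1. For Sox6 they were Abcb4, a phospholipid transporter (r = 0.92, rho = 0.88), Tmem81 (r = 0.87, rho = 0.80) and Tmem8 (r = 0.86, rho = 0.83), with Abcb4 at a mean of 0.944 TPM. For Sox9 they were Adgrg2, an adhesion receptor (r = 0.90, rho = 0.84), Chad, a matrix protein of cartilage (r = 0.88, rho = 0.82), and Cbx6, a Polycomb protein (r = 0.87, rho = 0.82). Chad was the only gene of the cartilage-type list among the genes closest to a member, at a listed 0 to 6.65 TPM. For Sox5 they were Dpyd (r = 0.95, rho = 0.56), Klc4 (r = 0.94, rho = 0.59) and Lysmd2 (r = 0.94, rho = 0.57), and these fell to r of 0.65, 0.49 and 0.58 without DOX/IgG1 replicate 1. The likeness to Sox5 thus rested largely on that tumor.

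For Sox10 the closest genes were Mrpl54, a mitochondrial ribosomal protein (r = 0.89, rho = 0.92), 3110009E18Rik (r = 0.86, rho = 0.85) and Eif4a3, an exon junction helicase (r = 0.84, rho = 0.90). For Sox8 they were Pik3ca, a catalytic kinase subunit (r = 0.90, rho = 0.86), Phldb2 (r = 0.83, rho = 0.81) and Coro1a (r = 0.82, rho = 0.77). For Sox11 they were Gm30191 (r = 0.90, rho = 0.84), Ddah1 (r = 0.87, rho = 0.84) and Atp6v1c2, a proton pump subunit (r = 0.86, rho = 0.87). None of these was a neural crest or SoxC list gene. For Sox12 they were AK010878 (r = 0.90, rho = 0.88), Otud3 (r = 0.90, rho = 0.89) and Morc2a (r = 0.90, rho = 0.87). For Sox13 they were Clec2d (r = 0.90, rho = 0.80; r = 0.73 without DOX/IgG1 replicate 1), Klhdc7a (r = 0.90, rho = 0.78) and Proser3 (r = 0.89, rho = 0.76). For Sox17 the closest gene was Jmjd4 (r = 0.87, rho = 0.66). As the highest of 14735 values, such correlations are a description of these 12 tumors.

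The 9 other Sox genes of the table were mostly at low levels. Sox1 and Sox30 were listed at 0 in all tumors, and Sox2, Sox3, Sox15 and Sox21 did not exceed 2.28 TPM in any. Sox14, of the SoxB group, lay at 1.81 to 12.8 TPM with a mean of 8.22 TPM, above Sox8, and the SoxF gene Sox18 a listed 0 to 6.76 TPM. The SoxF gene Sox7, known from endothelium, was listed at 1.59, 1.51 and 2.18 TPM with IgG1, 0.970, 0.370 and 0.840 TPM with anti-PD-1, 4.05, 2.0 and 2.41 TPM with DOX/IgG1 and 2.23, 1.67 and 2.02 TPM with DOX/anti-PD-1. All anti-PD-1 values of Sox7 were below all values of the other groups. Doxorubicin over both antibodies gave Sox7 a log2 fold change of 0.62 (SE 0.28; adjusted p = 0.405; exact permutation p = 0.01), and 0 of the 4 tested genes of this list were called. The unadjusted limma p of Sox7 was 0.0448, and it was above 0.05 without DOX/IgG1 replicate 1, which held its highest value. Sox17 had -0.13 (SE 0.43), 0.17 without DOX/anti-PD-1 replicate 1 and down to -0.36 without another tumor, and a difference between Sox7 and Sox17 was not tested.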

How the data were processed

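RNA of 12 whole PyMT tumors was prepared with a stranded total RNA kit. The authors used skewer for trimming, STAR for alignment to mm10 and RSEM for gene levels, with versions not given in the sources used here, and whether counting used strand was not stated. The deposited values are log2(TPM + 1) written with decimal commas, and they were turned back into TPM. That they are TPM was taken from the authors' methods text, since the labels name no unit and the values alone do not separate TPM from FPKM. TPM sums were 609418 to 725506 per tumor, TPM keep no read depth, and 4214 of 21960 genes were listed at 0 in all tumors.

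Genes with at least 1 TPM in at least 3 tumors of a fit were tested with limma 3.58.1 in R 4.3.3 (lmFit and eBayes with trend, two-sided) on log2(TPM + 1). A gene was called at a Benjamini-Hochberg adjusted p below 0.1 and a log2 fold change above 1 in size. The 4 comparisons of paired groups used the 6 tumors compared, and the effects of doxorubicin, of anti-PD-1 and their interaction used all 12. Exact permutation tests used SciPy 1.17.1. Alternatives were a pseudocount of 0.1, no expression minimum, scaling by the median of ratios, a replicate block, no trend, all 12 tumors in one fit, and leaving out each tumor.

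Members and gene lists were chosen with earlier results of these data known. Named genes were the members, other Sox genes, from each other list the most abundant gene and up to 3 rises and 3 falls, taken by size at an unadjusted p below 0.05, known partners or targets, and the 3 genes with the highest Pearson r to each member. A few genes that this rule would name are not reported here. Of duplicated symbols such as Itgam the more abundant entry was used. Positions came from GENCODE vM21, and promoter sequences from RefSeq on GRCm38.p6. The scripts were tested on simulated data.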

Additional observations from a re-analysis of the deposited data

Results flagged for a closer look

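The log2 fold change of Sox4 with doxorubicin was -1.18 under IgG1 and 0.16 under anti-PD-1. These differed by 1.33 in an interaction test (SE 0.45, limma adjusted p = 0.993), which is why Sox4 is listed here. Sox4 was the only member with an unadjusted limma p below 0.05, against 4.71% of all genes, and it was not called. Groups with and without doxorubicin also differed in starting tumor size, first antibody dose and schedule.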

How the results depend on the processing

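The number of Sox members called was 0 in every comparison and under every alternative tried. Of 978 values of single members under the alternatives, 19 crossed to an unadjusted limma p above 0.05 and 5 to one below it. The others stayed on their side of that limit, 14 of them above it with a move of more than 1 SE, and 940 without such a move or below the limit in both fits. The sign was opposite in 87, which were 5 of these 14 and 82 of these 940, and in 0 of the 87 was a value past the limit before or after. Counts of all genes called were less stable. A pseudocount of 0.1 gave 6 for doxorubicin over both antibodies in place of 13, and 0 for anti-PD-1 over both arms and 0 for the interaction in place of 1 each. Without an expression minimum the interaction gave 3. Scaling by the median of ratios gave 3 for DOX/anti-PD-1 versus DOX/IgG1 in place of 0, 0 for anti-PD-1 over both arms and 0 for the interaction. Without the trend, counts were 13 for DOX/IgG1 versus IgG1 in place of 5, 3 for DOX/anti-PD-1 versus anti-PD-1, 1 for anti-PD-1 versus IgG1, 3 for DOX/anti-PD-1 versus DOX/IgG1, 3 for anti-PD-1 over both arms and 3 for the interaction. All 12 tumors in one fit gave 2 for DOX/anti-PD-1 versus DOX/IgG1. With 1 tumor left out, counts were 0 to 122 for DOX/IgG1 versus IgG1, 0 to 4 for each of the other 3 comparisons of paired groups, 0 to 301 for doxorubicin over both antibodies, 0 to 5 for anti-PD-1 over both arms and 0 to 1 for the interaction. The cause was not tested.

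Replicate numbers name no shared mouse. Correlations of deviations from the group means between tumors with the same number ranged from -0.10 to 0.13, so the numbers were not taken as pairs. A replicate block gave 2 calls for DOX/IgG1 versus IgG1, 0 for anti-PD-1 over both arms and 0 for the interaction.

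A comparison of 3 tumors with 3 allows no exact permutation p below 0.1, and the depth behind a low TPM such as that of Sox11, Sox12 or Sox17 is unknown.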
